A study of Mus musculus with 10 samples.

Results

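Afmid, Kmo, Kynu, Haao, Acmsd, Qprt and Nampt are 7 genes of tryptophan breakdown and of nicotinamide adenine dinucleotide (NAD) synthesis. They were taken by symbol from all 10 count tables, which together hold 28808 gene symbols, with 20667 to 23393 in each. Their counts were followed by day in barcodes of the proximal tubule and in barcodes carrying markers of injured tubule, both picked on raw marker counts. The material was kidney cortex of mice aged 4 weeks, dissociated to single cells and sequenced by Drop-seq, a droplet method that tags the transcripts of single cells with a bead's barcode and reads their 3' ends. The control, day 1, day 2 and day 4 after injury were covered by a single library each, and days 7, 11 and 14 by 2 each (called replicates 1 and 2). All groups share age and tissue as labelled, and strain, kind of injury and animal per library are not given in the sources used here. Y-linked transcripts (Ddx3y, Eif2s3y) were present in the proximal barcodes of every library and Xist was at most 0.338 counts per 1000000 (CPM), so no library stood apart by sex.

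The kynurenine pathway opens tryptophan to formylkynurenine, which Afmid (kynurenine formamidase) turns into kynurenine. Kmo hydroxylates kynurenine, Kynu (kynureninase) cleaves the product to hydroxyanthranilate, and Haao opens its ring. The unstable product either cyclises to quinolinate, which Qprt converts into the NAD precursor nicotinate mononucleotide, or is decarboxylated by Acmsd, which takes it away from NAD. Nampt is the rate-limiting enzyme of the separate salvage route that rebuilds NAD from nicotinamide. The proximal tubule, like the liver, is known to make NAD from tryptophan.

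Barcodes under 500 counts (read as unique molecular identifiers, UMIs), under 500 genes or over 50% mitochondrial counts were dropped, which left 52797 of 64803 barcodes. The tables of day 11 held barcodes down to 300 genes, and all others only down to 500. Lowering the cutoff to 300 genes, among the other settings below, therefore added proximal barcodes on day 11 only. The libraries held 7091848 to 31632205 UMIs. A proximal barcode had at least 3 UMIs from at least 2 of 12 proximal markers (Lrp2, Slc34a1 and others), more than from any other tubule list, at most 1 non-tubular UMI and under 2 injury UMIs. An injured barcode had at least 2 UMIs of Havcr1 (Kim-1), Vcam1, Krt20 and Sprr2f, at most 1 non-tubular UMI, and a proximal or general epithelial UMI. These rules gave 23349 proximal barcodes (123 to 4985 per library, lowest in replicate 1 of day 7) and 4333 injured barcodes. The injured barcodes lay almost wholly in 5 libraries, those of days 1, 2 and 4 and both of day 7, with 261 to 1884 each, against 5 to 17 in each of the others. Median depth was 1271 to 2598 UMIs in proximal barcodes and 1692.5 to 4190 in the injured barcodes of those 5 libraries. Pairs of libraries shared 0 to 11 barcodes, at most 0.195%.

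The sequence before the start site is shown for Haao, which was lower in injured barcodes, and for Nampt, which was not. Each window holds the 250 bases before the RefSeq start site on GRCm38.p6, read 5′ to 3′ along the gene. Capitals mark a match to the core CAAAGNNCA bound by HNF4 or to the core GTTAAT bound by HNF1, on either strand. Both factors are known regulators of proximal tubule genes, and the motifs were chosen with the sequences in view.
Haao: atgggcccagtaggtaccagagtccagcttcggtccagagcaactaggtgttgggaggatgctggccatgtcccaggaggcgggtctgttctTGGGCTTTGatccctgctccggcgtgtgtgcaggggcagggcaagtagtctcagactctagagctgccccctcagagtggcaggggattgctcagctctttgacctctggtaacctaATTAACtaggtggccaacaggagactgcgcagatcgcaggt
Nampt: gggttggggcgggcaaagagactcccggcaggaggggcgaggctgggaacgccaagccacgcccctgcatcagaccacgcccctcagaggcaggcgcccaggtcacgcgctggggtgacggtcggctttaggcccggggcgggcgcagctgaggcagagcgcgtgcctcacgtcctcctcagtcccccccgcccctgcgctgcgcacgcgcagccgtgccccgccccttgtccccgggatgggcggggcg
The windows lie at chr17:83846791-83847040 (-) for Haao and chr12:32820085-32820334 (+) for Nampt. RefSeq and GENCODE do not place all starts alike. The nearest start of a GENCODE coding transcript is 22 bases from the RefSeq start for Haao and the same base for Nampt, but both windows lie inside the GENCODE gene because another transcript, of a retained-intron or nonsense-mediated decay type, begins further out. The Haao window is also covered by an exon of such a transcript. In the windows of Kmo and Qprt, not printed, 197 of the 250 bases lie in a 5′ UTR of a GENCODE coding transcript, so they are not upstream sequence by that annotation. The HNF4 core was found on the opposite strand in Haao (TGGGCTTTG, first base at -158) and in Kmo (TGAGCTTTG, at -96). The HNF1 core was found in Haao (ATTAAC, at -41), and the windows of Qprt, Nampt and Afmid held neither core. The HNF1 full site and the PPAR direct repeat were searched as well and had no match in these 5 windows. Of 32851 windows of the same length, 5.488% held the HNF4 core and 6.432% the HNF1 core, and a match describes letters only.

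All 7 genes are protein coding and lie, on GRCm38, at chr11:117825924-117839908 (Afmid), chr1:175620381-175662116 (Kmo), chr2:43555329-43682715 (Kynu), chr17:83831156-83847963 (Haao), chr1:127729413-127767978 (Acmsd), chr7:127107114-127122226 (Qprt) and chr12:32819545-32853349 (Nampt). Afmid overlaps Gm20708 on its own strand and Tk1 on the other, so its counts are uncertain. Nampt overlaps the noncoding Gdap10 on its own strand. Kmo overlaps Fh1 and Acmsd overlaps 2900009J06Rik on the opposite strand. The sources used here do not say whether the counting used strand.

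Kmo, the hydroxylase of the pathway, was at its highest in the control and did not regain that level by day 14. In proximal barcodes it stood at 104 CPM in the control, 16.0 on day 1, 26.1 on day 2, 36.7 on day 4, 0 and 25.9 on day 7, 51.0 and 47.0 on day 11, then 51.1 and 52.8 on day 14. All 9 later libraries lay below the control, and their exact 95% Poisson intervals, which cover counting error only, did not reach its interval of 99.2 to 110 CPM. The 0 in replicate 1 of day 7 is a count of 0 in 196285 UMIs and allows up to 15.3 CPM. Days 11 and 14 were close to each other, at 49.0 ± 2.83 and 51.9 ± 1.22 CPM (mean ± SD, n = 2 libraries each), against 13.0 ± 18.3 on day 7.

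Haao, which opens the ring of hydroxyanthranilate, went the other way late in the series. It was 65.9 CPM in the control, 7.13 on day 1, 63.4 on day 2, 116 on day 4, 15.3 and 100.3 on day 7, 146 and 167 on day 11, then 167 and 196 on day 14. All 4 libraries of days 11 and 14 exceeded the control, at 221% to 297% of its level by CPM. On the scale used in the tests (edgeR's TMM, which adjusts library totals) they stood at 205% to 263%. Day 1 was at 10.8% of the control, from 4 UMIs. The day 7 libraries disagreed with each other, and their mean of 57.8 ± 60.1 CPM (SD, n = 2) describes neither.

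Acmsd, the branch enzyme that draws the intermediate away from NAD, fell and came part of the way back. Its proximal level was 191 CPM in the control, 96.2 on day 1, 157 on day 2, 74.6 on day 4, 71.3 and 84.8 on day 7, 103 and 124 on day 11, then 134 and 166 on day 14. All 9 later libraries lay under the control, and the counting intervals of all 9 stayed below the control interval of 184 to 198 CPM. The lowest levels were those of days 4 and 7, at 37.4% to 44.4% of the control by CPM and 20.8% to 28.8% on the TMM scale. The day 14 libraries stood at 70.1% and 86.8% by CPM and at 63.4% and 76.7% on the TMM scale.

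Qprt, the step that commits quinolinate to NAD, had a higher CPM than the control in 8 of 9 libraries. On the TMM scale it was higher in 7, and day 1 was at 89.6% of the control. It measured 38.7 CPM in the control, 53.5 on day 1, 56.5 on day 2, 100.3 on day 4, 25.5 and 74.4 on day 7, 76.3 and 82.6 on day 11, then 82.4 and 86.8 on day 14. Replicate 1 of day 7, the exception, rests on 5 UMIs, and its interval of 8.3 to 59.4 CPM spans the control value. The interval of day 1 also overlaps that of the control. The 4 libraries of days 11 and 14 lay within 76.3 to 86.8 CPM, at 197% to 224% of the control by CPM and 182% to 198% on the TMM scale.

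Nampt, the salvage enzyme, had its highest level on day 2. It was 66.6 CPM in the control, 39.2 on day 1, 116 on day 2, 77.7 on day 4, 45.9 and 55.4 on day 7, 40.2 and 44.3 on day 11, then 52.6 and 45.1 on day 14. Day 2 was the highest library, at 175% of the control by CPM, with its interval of 108 to 126 CPM apart from that of the control. On the TMM scale day 2 was at 127% and day 4 at 81.1% of the control. All 6 libraries from day 7 on lay below the control, at 60.4% to 83.1% of it by CPM and between 40.2 and 55.4 CPM. On the TMM scale they stood at 38.3% to 71.4%. The counting intervals of both day 7 libraries overlapped that of the control.

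Afmid and Kynu were near the limit of detection. Afmid gave 7.70 CPM in the control, 0 to 10.1 CPM on days 1 to 7 and 8.89 to 13.9 CPM on days 11 and 14. Kynu gave 0.47 CPM in the control, from 7 UMIs, and 1.35 to 3.82 CPM on days 11 and 14, from 8 to 52 UMIs per library. Its 10.2 CPM in replicate 1 of day 7 rests on 2 UMIs.

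**Figure D1:**
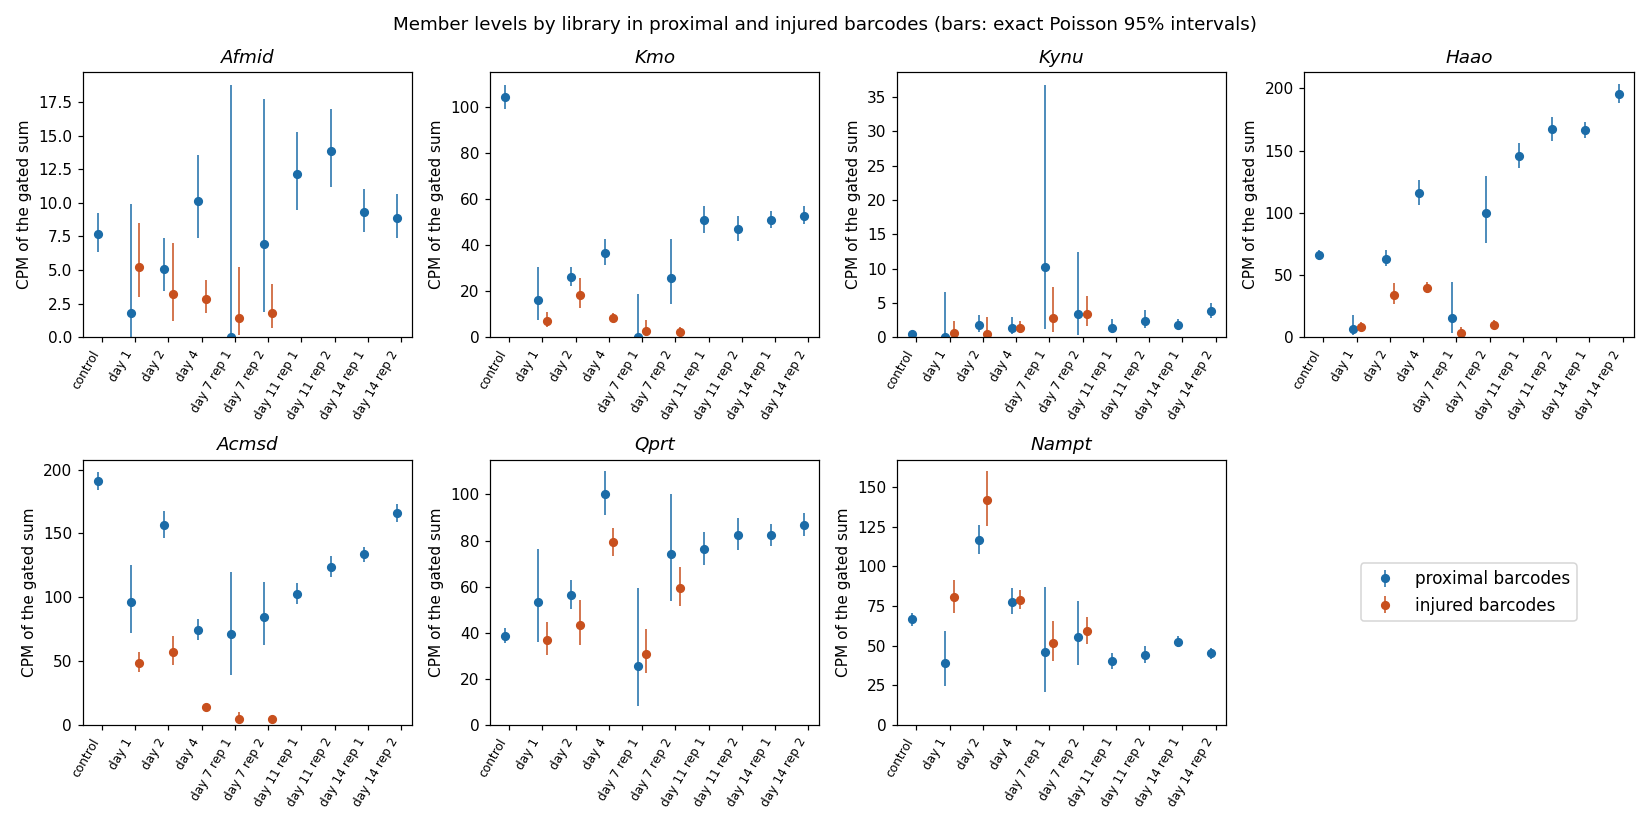
CPM of each gene in the summed proximal (blue) and injured (orange) barcodes of each library with at least 50 such barcodes, with exact Poisson 95% intervals that cover counting error only. Kmo falls from 104 CPM in the control to between 47.0 and 52.8 in the 4 libraries of days 11 and 14, whereas Haao is at 65.9 in the control and between 146 and 196 in the same libraries, a difference that did not pass the test on either day.

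The summed proximal counts were compared with the control by edgeR's quasi-likelihood test over all 14333 genes that passed its filter on low counts, with Benjamini-Hochberg adjustment at 0.05. All 7 genes passed the filter. The control and days 1, 2 and 4 have 1 library each, so their spread is assumed to equal that of the replicated days, and days 1, 2 and 4 entered no comparison. The labels do not tell whether replicates 1 and 2 are separate animals, so the p-values measure the spread between these libraries, which may be technical. The 3 comparisons with the control share that single library and are not independent of each other. The control also had the highest median mitochondrial share in proximal barcodes, 23.0%, against 5.52% and 9.27% on day 7 and 11.7% to 17.7% on days 11 and 14. With barcodes of at most 25% mitochondrial counts, Kmo was at -3.04, -1.18 and -1.13 on days 7, 11 and 14 and Acmsd at -1.91, -0.85 and -0.46, with the same calls for both as below.

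On day 7, 3 of the 7 genes were lower than in the control and none was higher, where 9.22% of all genes were called in either direction (4.35% higher and 4.88% lower). Kmo fell by 3.16 on the log2 scale (SE 0.46, edgeR adjusted p = 0.0013). Its size is uncertain, at -12.8 to -2.58 over libraries left out in turn, as replicate 1 of day 7 held 0 Kmo UMIs. Acmsd fell by 1.95 (SE 0.29, edgeR adjusted p = 0.00143) and Nampt fell by 1.04 (SE 0.29, edgeR adjusted p = 0.0409). The log2 change was -0.09 for Qprt (95% interval -0.88 to 0.71) and -0.56 for Haao (interval -1.57 to 0.44), and neither passed. The median over the 7 genes was -1.04, against -0.09 over all genes.

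The call on Nampt was lost in 8 of 13 other settings of the processing, against 1 for Acmsd and none for Kmo. It was also lost without replicate 1 of day 7 (-0.84, edgeR adjusted p = 0.103), without replicate 1 of day 11 (adjusted p = 0.0658) and without replicate 2 of day 11 (adjusted p = 0.0652). Without replicate 2 of day 7, Haao was 2.95 lower on the log2 scale and was called (edgeR adjusted p = 0.00608), whereas without replicate 1 it was at 0.03. Replicate 1 of day 7 held only 123 proximal barcodes, and 10 macrophage markers summed to 1029 CPM in it, mostly Lyz2 at 718 CPM, against 7.23 to 227 CPM in the other libraries. Its 4 erythroid markers summed to 917 CPM, against 17.1 CPM in the control. The part of these RNAs in the day 7 values was not tested.

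On day 11, again 3 genes were lower and none was higher, where 20.2% of all genes were called (8.88% higher and 11.3% lower). Kmo fell by 1.22 (SE 0.30, edgeR adjusted p = 0.0136), Acmsd fell by 0.88 (SE 0.25, edgeR adjusted p = 0.0256) and Nampt fell by 0.78 (SE 0.23, edgeR adjusted p = 0.0282). Qprt was at 0.91 (SE 0.30, edgeR adjusted p = 0.0505) and Haao at 1.12 (SE 0.41, adjusted p = 0.0729), just outside the threshold. Of 13 other settings of the processing, 8 called Qprt higher and 6 called Haao higher, and the call on Nampt was lost in 2. Erythroid markers summed to 2610 and 1331 CPM in the proximal barcodes of day 11, and their part in these values was not tested. With 1 day 11 library left out, that day had a single library, and calls were fewer among the 7 genes and over all genes. Over libraries left out in turn, the changes were -1.29 to -1.14 for Kmo, -1.0027 to -0.761 for Acmsd and -0.84 to -0.73 for Nampt. Without either day 7 library, or either day 14 library, Haao and Qprt were called as higher as well, at log2 changes of 1.04 to 1.21 and 0.87 to 0.96 over all libraries left out in turn.

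On day 14, Kmo alone was called, having fallen by 1.17 (SE 0.29, edgeR adjusted p = 0.028), where 9% of all genes were called (3.98% higher and 5.02% lower). Haao was at 1.30 (SE 0.41, edgeR adjusted p = 0.0691), Qprt at 0.97 (SE 0.30, edgeR adjusted p = 0.0636) and Kynu at 2.37 (SE 0.70, edgeR adjusted p = 0.0519). Of 13 other settings, 6 called Haao and 6 called Qprt higher, as did 5 of 12 for Kynu. Acmsd was at -0.51 (95% interval -1.05 to 0.02) and Nampt at -0.61 (interval -1.09 to -0.13), with adjusted p of 0.212 and 0.106 by edgeR. Over libraries left out in turn, the changes were 1.19 to 1.39 for Haao, 0.94 to 0.98 for Qprt and 1.77 to 2.79 for Kynu. They were -0.74 to -0.49 for Nampt and -1.18 to -1.16 for Kmo. The median over the 7 genes was 0.08, against 0.02 over all genes.

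**Figure D2:**
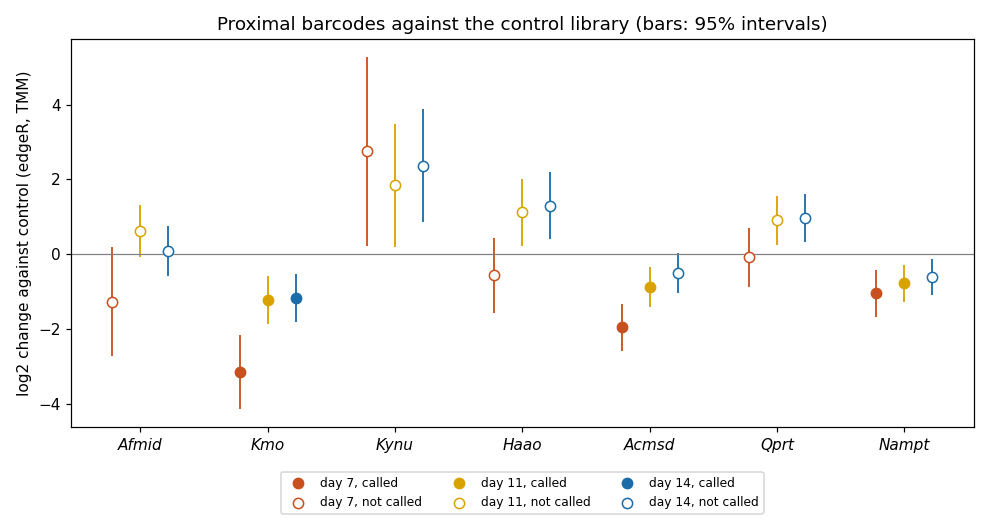
Log2 change of each gene in proximal barcodes on days 7, 11 and 14 against the control library, with 95% intervals from the edgeR model; filled points passed an adjusted p of 0.05. The Kmo points lie at -3.16, -1.22 and -1.17 and are filled, and the Haao and Qprt points of days 11 and 14 lie between 0.91 and 1.30 and are open.

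Between days that have replicates, the proximal levels of 3 genes rose from day 7 to day 11. Kmo rose by 1.94 on the log2 scale (SE 0.45, edgeR adjusted p = 0.0182), Haao by 1.68 (SE 0.41, edgeR adjusted p = 0.0205) and Acmsd by 1.07 (SE 0.26, edgeR adjusted p = 0.0226), where 11.3% of all genes were called (6.83% higher and 4.47% lower). Qprt was at 0.99 (SE 0.32, edgeR adjusted p = 0.0653) and Nampt at 0.26 (95% interval -0.33 to 0.84). Of 14 other settings, the call was lost in 3 for Kmo, 4 for Haao and 4 for Acmsd. Leaving out either day 11 library left a single library for that day, and calls were fewer among the 7 genes and over all genes. Over libraries left out in turn, the changes were 1.38 to 11.57 for Kmo, 1.10 to 4.07 for Haao and 0.88 to 1.38 for Acmsd. In replicate 1 of day 7, Kmo rests on 0 UMIs and Haao on 3. Without replicate 1 of day 7, Acmsd was at 0.88 and no longer called (edgeR adjusted p = 0.072).

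The day 7 levels are also the ones most moved by scaling. The TMM factors of the proximal sums ran from 0.776 in the control to 1.39 in replicate 1 of day 7. Scaling by total counts moved the median of all genes from -0.09 to 0.61 for day 7 against the control, and from 0.04 to -0.52 for day 11 against day 7. Under it, Haao on day 7 changed sign to 0.12 without a call, and Nampt on day 7 was at -0.35 (edgeR adjusted p = 0.446). None of the 7 genes was called between days 7 and 11, where 14.6% of all genes were.

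From day 11 to day 14 none of the 7 genes was called, with none at an unadjusted p under 0.05 by edgeR's quasi-likelihood test and none called by DESeq2, where 8.56% of all genes were called by edgeR (3.65% higher and 4.91% lower). The changes ranged from -0.54 (Afmid) to 0.53 (Kynu). The 95% intervals were -0.50 to 0.60 for Kmo, -0.51 to 0.87 for Haao and -0.46 to 0.57 for Qprt, so differences within those bounds remain possible.

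Markers of tubule segments differed in level between the proximal barcodes of different days, and whether segment makeup or marker expression changed was not tested. Slc7a13, a marker of the late (S3) segment, was at 671 CPM in the control, 7.13 on day 1, 30.7 on day 2, 901 on day 4, 102 and 1154 on day 7, 840 and 1118 on day 11, then 1392 and 1094 on day 14. Slc5a12, a marker of the early segments, was at 80.5 CPM in the control and 478, 868, 376, 678 and 246 CPM in the 5 libraries of days 1 to 7. Day 1, day 2 and replicate 1 of day 7 had 9, 34 and 5 proximal barcodes with late markers only, against 181, 793 and 89 with early markers only. Haao stood at 7.13, 63.4 and 15.3 CPM in those 3 libraries.

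Proximal barcodes were therefore divided, after these values had been seen, into those with Slc5a2 or Slc5a12 and neither late marker, and those with Slc7a13 or Slc22a30 and neither early marker. In all 7 libraries with at least 50 barcodes of both kinds, Haao was higher in the late-marked barcodes, with counting intervals apart in all 7. The pairs, early then late, were 39.4 and 77.8 CPM in the control, 57.5 and 154 on day 4, 25.1 and 129 in replicate 2 of day 7, 92.4 and 169 as well as 97.6 and 192 on day 11, then 85.8 and 202 as well as 115 and 241 on day 14. Qprt was also higher in the late-marked barcodes in 7 of 7 libraries, with a median log2 ratio of 0.55 and intervals apart in 3. Kmo and Acmsd showed little difference, with median log2 ratios of 0.07 and 0.03 and intervals apart in 0 and 1 of 7 libraries. In the early-marked barcodes of day 7 Haao stood at 21.4 and 25.1 CPM, each from 3 UMIs, with intervals of 4.41 to 62.4 and 5.18 to 73.4 CPM that leave a wide difference possible. Its early-marked level was 7.77 CPM on day 1, from 3 UMIs (interval 1.60 to 22.7), and 46.9 CPM on day 2. The control interval was 27.0 to 55.7 CPM.

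Within each kind of barcode the changes against the control kept their direction for Kmo and Haao on days 11 and 14. In late-marked barcodes on day 14, where 19.9% of all genes were called, Haao was 1.29 higher on the log2 scale (edgeR adjusted p = 0.00319), Qprt 1.01 higher (adjusted p = 0.00671), Kmo fell by 1.22 (adjusted p = 0.00274) and Nampt fell by 0.83 (adjusted p = 0.0197). In early-marked barcodes on day 14, where 4.8% of all genes were called, Haao was 1.26 higher (edgeR adjusted p = 0.0203) and Kmo fell by 1.14 (adjusted p = 0.0145), whereas Qprt at 0.74 and Nampt at 0.10 were not called. On day 11, Haao and Qprt were called higher in both kinds of barcode, at 1.10 and 0.89 in late-marked and at 1.19 and 1.05 in early-marked ones, where 31.3% and 12.9% of all genes were called. The late-marked fit had no library of day 1, day 2 or replicate 1 of day 7, each with under 50 such barcodes.

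**Figure D3:**
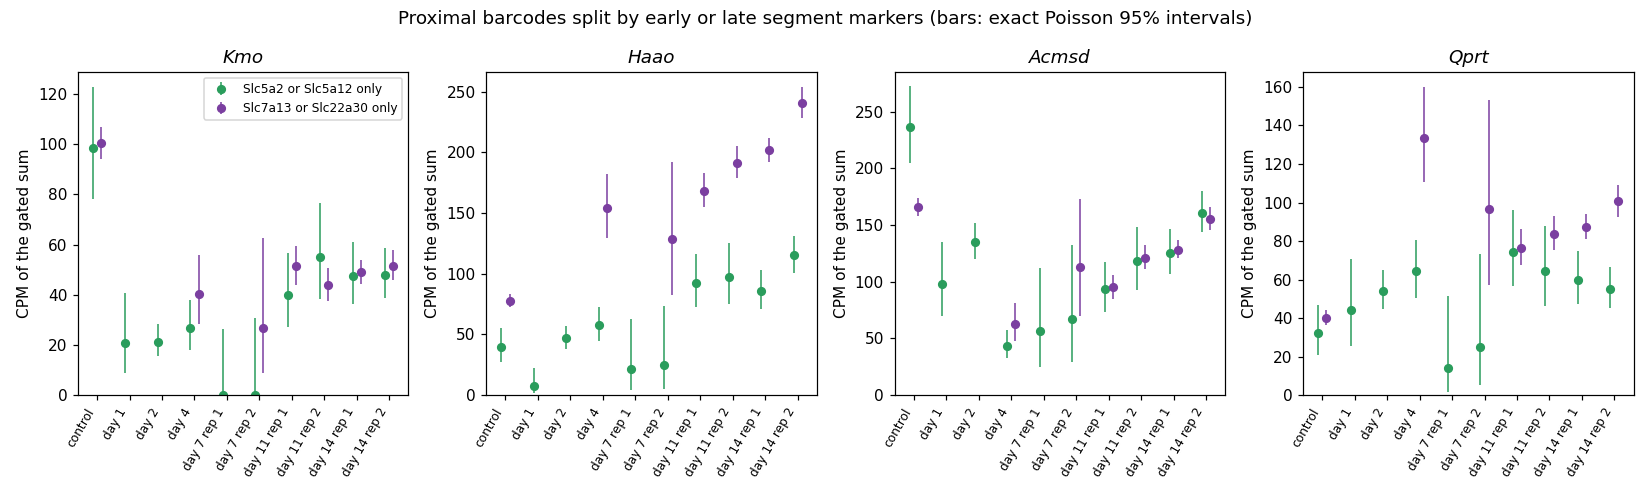
CPM of Kmo, Haao, Acmsd and Qprt in proximal barcodes with early-segment markers only (green) and late-segment markers only (purple), per library with at least 50 such barcodes, with exact Poisson 95% intervals. The purple Haao points lie above the green ones in all 7 libraries that have both, and the Kmo points of the control, 98.6 and 100.5 CPM, lie above all later points.

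Injured barcodes were compared with proximal barcodes of the same library in the 5 libraries that had at least 50 of both. Acmsd, Haao, Kmo, Afmid and Qprt were lower in the injured barcodes, Nampt was not called, and Kynu did not pass the filter on low counts. Of all 12444 genes tested, 35.9% were called, 19.5% higher and 16.4% lower, so calls were common in this comparison. The median over the 6 tested genes was -1.60, against 0.06 over all genes.

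Acmsd was lower in all 5 libraries, with counting intervals apart in all 5. Its injured and proximal levels were 48.9 and 96.2 CPM on day 1, 57.6 and 157 on day 2, 14.03 and 74.6 on day 4, then 5.05 and 71.3 as well as 4.56 and 84.8 on day 7. The groups did not overlap, and the injured level was lowest on day 7. The 12 proximal markers summed to 1276 and 1337 CPM in the injured barcodes of day 7, against 1882 to 3774 CPM on days 1, 2 and 4. The part of this difference in the Acmsd levels was not tested. The change fitted within libraries was -2.35 on the log2 scale (SE 0.34, edgeR adjusted p = 0.000141).

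Haao was lower in 4 of 5 libraries. The injured and proximal levels were 8.20 and 7.13 CPM on day 1, 34.4 and 63.4 on day 2, 39.9 and 116 on day 4, then 3.61 and 15.3 as well as 10.04 and 100.3 on day 7. Day 1, where both levels were low, was the exception. Its fitted change was -1.85 (SE 0.32, edgeR adjusted p = 0.000513).

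Kmo was lower in 4 of 5 libraries, with injured levels of 7.22, 18.3, 8.39, 2.89 and 2.13 CPM in order of day. The exception was replicate 1 of day 7, where the proximal count was 0 and the injured count 4 UMIs. The fitted change was -1.84 (SE 0.37, edgeR adjusted p = 0.00155). Afmid, with 2 to 24 injured UMIs per library, was at -1.35 (SE 0.44, edgeR adjusted p = 0.0297), lower in 3 of 5 libraries, and its call was lost without replicate 2 of day 7 (adjusted p = 0.051) and in 5 of 12 other settings.

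Qprt was lower in 4 of 5 libraries as well. The injured and proximal levels were 37.1 and 53.5 CPM on day 1, 43.6 and 56.5 on day 2, 79.4 and 100.3 on day 4, then 31.0 and 25.5 as well as 59.6 and 74.4 on day 7. The groups overlapped across libraries. The fitted change was -0.58 (SE 0.13, edgeR adjusted p = 0.00417), and the call was lost in 5 of 14 other settings. Within libraries, the log2 change of Qprt minus that of Acmsd was 2.32 ± 1.64 (SD, n = 5 libraries), minus that of Haao 1.27 ± 1.48 and minus that of Nampt -0.579 ± 0.616. With 5 libraries an exact two-sided permutation test cannot go below p = 0.0625, so these differences between genes are given without a test. These pairs were chosen after the levels had been seen.

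By CPM, Nampt was not lower in injured barcodes in any of the 5 libraries. The log2 ratios were 1.04 on day 1, 0.29 on day 2, 0.02 on day 4, then 0.18 and 0.10 on day 7. On that scale the fitted median of all genes was itself 0.30, against 0.06 with TMM. Its injured and proximal levels were 80.4 and 39.2 CPM on day 1, 142 and 116 on day 2, 78.9 and 77.7 on day 4, then 51.9 and 45.9 as well as 59.3 and 55.4 on day 7. The fitted change was 0.05 (95% interval -0.29 to 0.40, edgeR adjusted p = 0.839), and intervals were apart only on day 1. Kynu was 0.54 to 3.35 CPM in injured barcodes, from 1 to 11 UMIs per library.

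**Figure D4:**
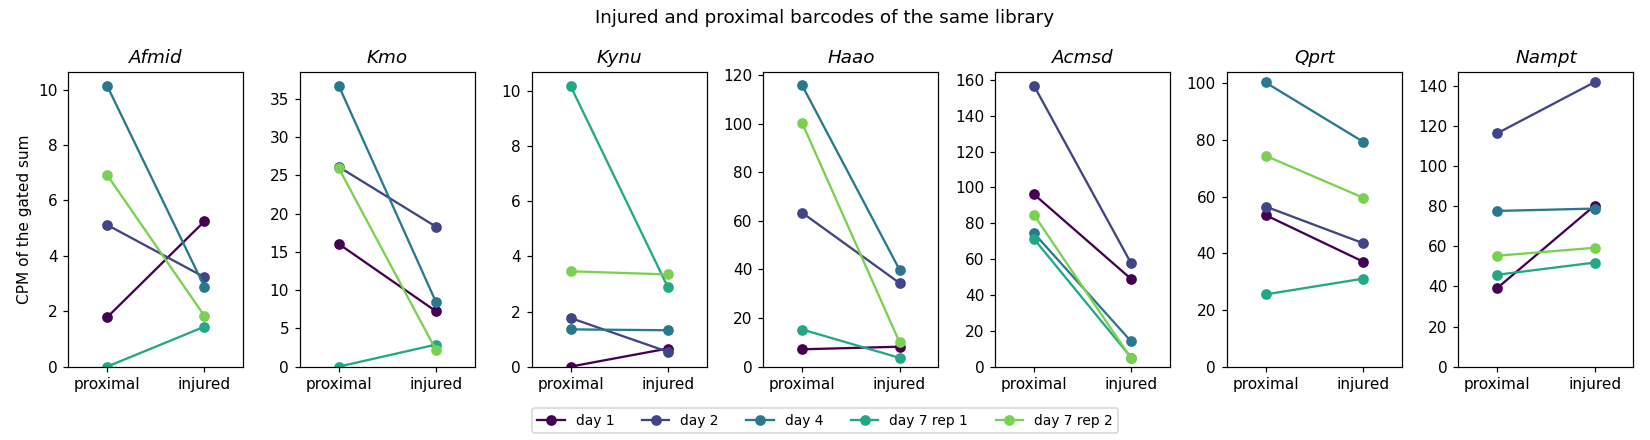
CPM of each gene in the proximal and the injured barcodes of the same library, with 1 line per library for days 1, 2 and 4 and both replicates of day 7. All 5 lines of Acmsd and 4 of 5 lines of Haao, Kmo and Qprt end lower in the injured barcodes. All 5 lines of Nampt end slightly or clearly higher, which did not pass the test. On this CPM scale the fitted median log2 change of all genes was 0.30.

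The injured barcodes carried markers of other tubule segments. Their collecting duct sums of 1137 to 4159 CPM compare with 168 to 301 CPM in the proximal barcodes of the same libraries. Restricted, after seeing the data, to injured barcodes that also met the proximal marker rule, where 25.3% of all genes were called, Acmsd was at -1.70 (edgeR adjusted p = 0.00266), Kmo at -1.30 (adjusted p = 0.0236) and Haao at -1.17 (adjusted p = 0.0123). In the same restriction Qprt was at -0.04 (edgeR adjusted p = 0.874) and Nampt at -0.02 (adjusted p = 0.941), and Afmid was not tested. The median of all genes moved from 0.06 to 0.30 when total counts replaced TMM, and Qprt (-0.34, edgeR adjusted p = 0.0535) and Afmid (-1.10, adjusted p = 0.0562) then missed the threshold.

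When proximal and injured barcodes were summed together, day 7 lay further from the control than in proximal barcodes alone. The log2 change was -5.47 for Kmo, -4.63 for Acmsd, -2.98 for Haao, -2.79 for Afmid and -1.26 for Nampt, and all 5 were called by edgeR at adjusted p of at most 0.0008. Calls were common in this fit, at 43.7% of all genes against 9.22% in proximal barcodes alone. Qprt was at -0.67 and not called (edgeR adjusted p = 0.111). Day 7 held 546 and 690 injured barcodes against 123 and 229 proximal ones, so the sum follows the share of injured barcodes as well as the level within each kind.

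Over the marker-gated classes, Haao, Acmsd, Qprt and Afmid had their highest median in proximal barcodes. Taking libraries with at least 50 barcodes of a class, the median Haao level was 108 CPM in proximal barcodes and 2.04 to 6.04 CPM in thick limb, distal and collecting duct barcodes. The median Qprt level was 75.3 CPM in proximal, 43.6 in injured and 3.15 to 4.95 in those 3 other tubule classes. The median Acmsd level was 113 CPM in proximal, 14.03 in injured and 4.20 to 7.24 in the 3 other tubule classes. Proximal medians are over all 10 libraries, but injured medians are over only the 5 libraries of days 1 to 7. In those 5, proximal levels ran from 25.5 to 100.3 CPM for Qprt and from 71.3 to 157 CPM for Acmsd. Neutrophil barcodes of days 1 and 2 held Acmsd at 44.5 and 55.8 CPM, from 9 UMIs in all.

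Kmo had its highest medians in 2 classes. The median was 41.9 CPM in proximal and 23.7 CPM in macrophage barcodes (7.66 to 129 CPM over 9 libraries), against 7.22 CPM in injured, 4.5 CPM in endothelial (0 to 17.1 CPM) and 0.808 to 3.73 CPM in the 3 other tubule classes. The injured median rests on the 5 libraries of days 1 to 7, where proximal Kmo ran from 0 to 36.7 CPM. Macrophages are known to express Kmo. Kynu, also known from myeloid cells, had a median of 4.85 CPM in macrophage and 1.80 CPM in proximal barcodes, from few UMIs. Nampt was present in every class, with medians from 30.0 CPM in T and NK barcodes to 139 CPM in neutrophil barcodes and 49.2 CPM in proximal ones. The T and NK median rests on 20 UMIs in the 2 libraries of day 7. The neutrophil median rests on 25 UMIs in the 2 libraries of days 1 and 2, so class and day are mixed.

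**Figure D5:**
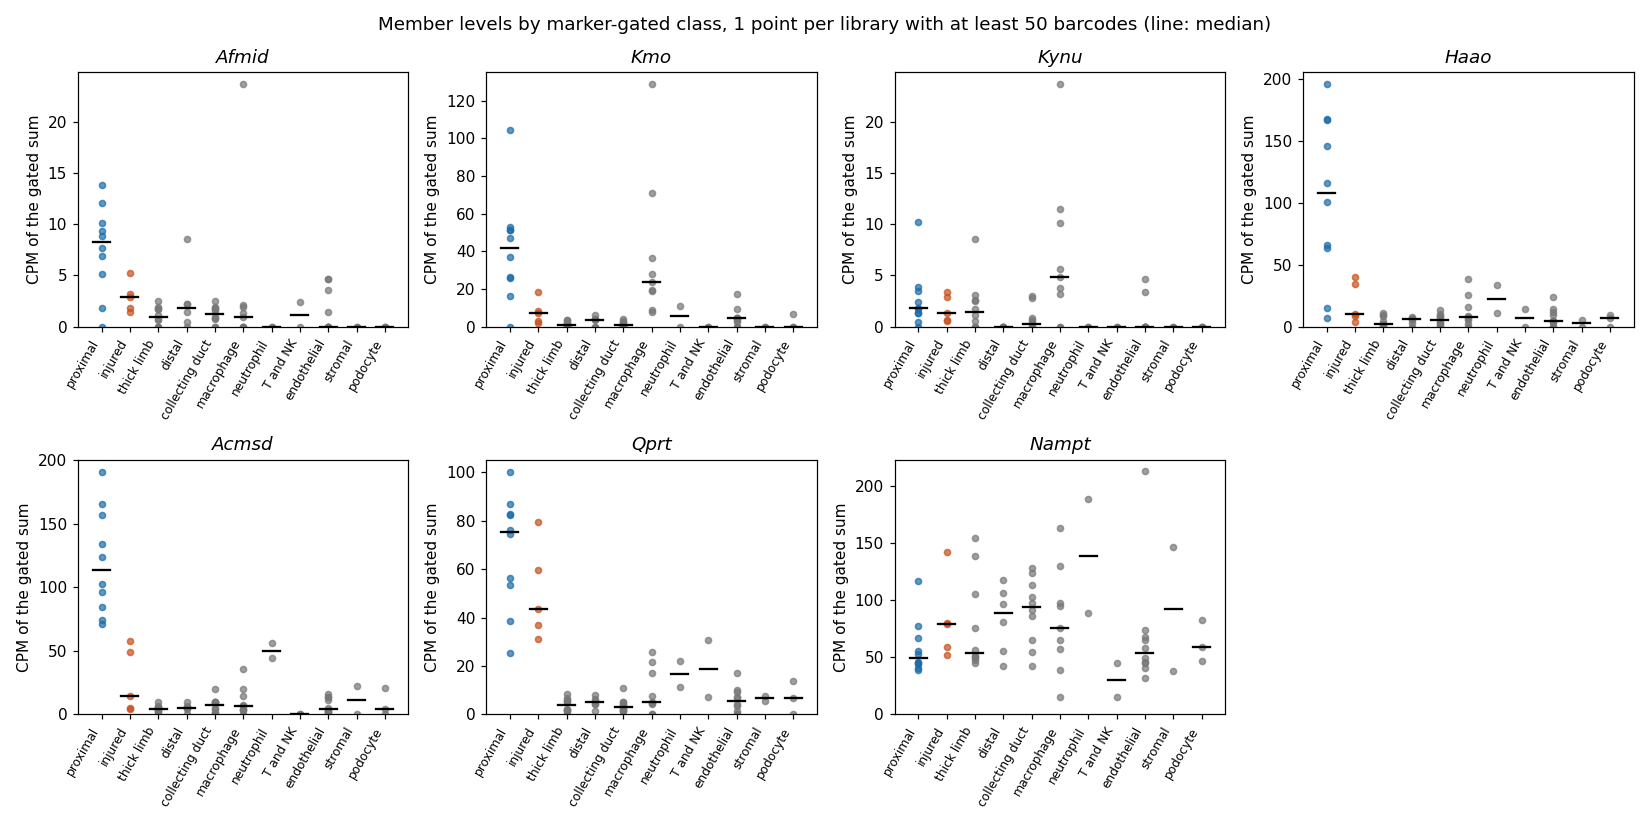
CPM of each gene by marker-gated class, with 1 point per library that holds at least 50 barcodes of the class and a line at the median. Haao, Acmsd and Qprt stand out in proximal barcodes, with medians of 108, 113 and 75.3 CPM, and Nampt is spread over all classes.

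The share of barcodes with a UMI was taken at a fixed depth. Each barcode was thinned to 1000 UMIs, which left out 2757 shallower proximal barcodes. Haao was then seen in 5.91% of control, 12.6% and 15.3% of day 11 and 14.4% and 16.0% of day 14 proximal barcodes, and Kmo in 8.66%, 4.83% and 4.41%, and 4.89% and 4.83%. In collecting duct barcodes, which should lack both, the shares were at most 1.42% for Haao and 0.599% for Kmo, at median depths of 1360 to 3093 UMIs. In endothelial barcodes, at median depths of 919 to 1486 UMIs, they reached 4.07% and 1.71%. Qprt was seen in 2.15% to 7.24% of injured barcodes and at most 1.52% of collecting duct, 2.44% of endothelial and 4.35% of macrophage barcodes, so the lowest injured shares are not above that background. Before thinning, proximal shares were 1.48% to 35.5% for Haao and 0 to 27.6% for Kmo.

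Of 30 other genes of NAD metabolism and tryptophan handling, 24 could be tested in proximal barcodes. Of the upstream dioxygenases that open tryptophan, Ido1 and Tdo2 were nearly absent, never passing 1 and 3 UMIs in the proximal barcodes of a library. Ido2 was low, with 220 UMIs in all and at most 78 in a library, and was tested. Nmnat2 and Nmrk2 never passed 1 UMI in the proximal barcodes of a library.

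Against the control, 1 of the 24 was higher and 2 were lower on day 7, 4 higher and 2 lower on day 11, and 5 higher and 1 lower on day 14. Over all genes 9.22%, 20.2% and 9% were called on those days, so the counts of days 7 and 11 are near the background. The higher genes were Nmnat1, Naprt1, Sirt3 and Slc6a19 on day 11, and these with Slc3a2 on day 14. The comparisons share the control library. Nmnat1, which makes NAD from the mononucleotide in the nucleus, was 1.43 higher on the log2 scale on day 14 (SE 0.30, edgeR adjusted p = 0.0131). Naprt1, which enters nicotinic acid into NAD synthesis, was 1.15 higher (SE 0.23, edgeR adjusted p = 0.0112), and Sirt3, the NAD-dependent deacetylase of mitochondria, 1.54 higher (SE 0.33, adjusted p = 0.0135). Slc6a19, the apical transporter of neutral amino acids, was 1.28 higher (SE 0.33, edgeR adjusted p = 0.0325).

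Slc3a2, the heavy chain shared by several amino acid transporters, was 1.81 higher on day 7 and 1.48 higher on day 14 (edgeR adjusted p = 0.0291 and 0.0486). Nadk2, the mitochondrial NAD kinase, was lower, at -1.59 on day 7, -0.66 on day 11 and -0.96 on day 14 (edgeR adjusted p = 0.014, 0.0464 and 0.0154). Ccbl2, a kynurenine aminotransferase, fell by 1.41 on day 7 and rose by 1.73 from day 7 to day 11 (edgeR adjusted p = 0.0229 and 0.00575), and Aldh8a1, which acts on the branch opened by Acmsd, rose by 1.31 from day 7 to day 11 (adjusted p = 0.0196). Ppargc1a, a coactivator known to raise kynurenine pathway genes in kidney, fell by 0.73 on day 11 (edgeR adjusted p = 0.041) and was at -0.49 on day 7 and -0.07 on day 14 without a call. Bst1, an NAD-consuming surface enzyme, fell by 2.61 from day 11 (3.54 and 5.43 CPM) to day 14 (0.0658 and 1.47 CPM; edgeR adjusted p = 0.0333). The 10 macrophage markers summed to 42.1 and 51.5 CPM in the same day 11 barcodes and to 9.28 and 10.2 CPM on day 14, and their part in this value was not tested.

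In injured against proximal barcodes, 13 of 23 tested genes of that list were lower and 2 were higher, where 16.4% of all genes were lower and 19.5% higher, with a median of -0.74 against 0.06 over all genes. The lower genes included Slc6a19 at -2.36 (SE 0.30), Aldh8a1 at -1.80 (SE 0.27), the aminotransferases Ccbl1 at -1.50 (SE 0.22) and Aadat at -1.29 (SE 0.25), and Sirt3 at -1.10 (SE 0.19), with edgeR adjusted p of at most 0.00119. Bst1 was 2.98 higher (SE 0.28), rising from 1.77 to 15.3 CPM in proximal to 11.8 to 69.1 CPM in injured barcodes over the 5 libraries. Nnmt, which methylates nicotinamide and so removes it from salvage, was the other gene called higher, at 2.31 (SE 0.52). It did not exceed 11.6 CPM in the injured barcodes of those libraries. Over all 10 libraries it had 9 UMIs in proximal and 130 in injured barcodes. It passed the filter on low counts through the injured barcodes, so its direction was fixed in advance and its call is no evidence of a difference. The collecting duct sums given above differ between the same barcodes. In injured barcodes that also met the proximal marker rule, 8 of 22 tested genes were lower and 2 higher, with a median of -0.45, and Aadat was no longer called (-0.67, edgeR adjusted p = 0.0919).

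Across the 10 proximal sums, the genes most like a member were found for 5 of the 7 genes by Pearson's r of log2(CPM + 1) over 5677 genes with a mean of at least 20 CPM, which Afmid (7.59 CPM) and Kynu (2.67 CPM) did not reach. These are descriptions over 10 libraries that also differ in depth and in segment marker levels. Nearest to Kmo were Reps2 (r = 0.970), Cckar (0.959) and Mycbp (0.954). Nearest to Haao were Pecr (0.993), Fah (0.991) and Tm2d2 (0.991), and nearest to Qprt were Lamtor3 (0.984), Dtd2 (0.967) and Dda1 (0.966). Nearest to Nampt were Samd9l (0.890), Rnf213 (0.887) and Acsm1 (0.876), and nearest to Acmsd were Angptl7 (0.842), Fam20b (0.789) and Col4a4 (0.780).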

How the data were processed

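Single-cell RNA was measured in 10 Drop-seq libraries of mouse kidney cortex. The deposited values are whole-number counts per gene symbol and barcode, 1 table per library, made from a modified Nextera XT 3' library per the labels' protocols. Bowtie2 2.2.7 and mm10 are named in the submitters' processing notes. That the deposited counts are UMIs, and whether strand was used, is not given in the sources used here.

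Counts were filtered and gated as described in the report (Python 3.11.15) and summed per library and gate. No doublet caller was run. The gates remove barcodes with 2 or more non-tubular UMIs, and an alternative removed the deepest 5%. The alternative of at least 300 genes per barcode raised proximal barcodes from 3148 to 5613 and from 3539 to 6235 on day 11. For injured against proximal barcodes it repeated the main fit, with 4464 of 12444 genes called in both. It is counted among the other settings there but tests nothing in that comparison. Sums were fitted with edgeR 4.0.16 in R 4.3.3 (TMM, filterByExpr, quasi-likelihood F test, Benjamini-Hochberg threshold 0.05), with 1 term per group for the days, which leaves 3 residual degrees of freedom, and with library as a block for injured against proximal barcodes. The SE is the log2 change divided by the square root of F. The fit was tested on simulated counts. DESeq2 1.42.0 was an alternative. CPM is per 1000000 counts of the gated sum, with exact Poisson 95% intervals, and a count of 0 allows up to 3 counts. Intervals cover counting error only.

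Gene positions come from a GRCm38 annotation and promoter windows from RefSeq (GRCm38.p6), of which some are not reported here. All 7 members are named. Of the other 30 pathway genes, those past the threshold were named, and genes of like pattern were the 3 with the highest r. The members, gene lists, gates and motifs were chosen with earlier results of these data known.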

Additional observations from a re-analysis of the deposited data

Results flagged for a closer look

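3 genes differed between 2 days under the same comparison with the control, by the edgeR test of the difference between day 11 and day 7 in proximal barcodes. Kmo differed by 1.94 on the log2 scale. Haao differed by 1.68 and Acmsd by 1.07. Over libraries left out in turn, the ranges were 1.38 to 11.57 for Kmo, 1.10 to 4.07 for Haao and 0.88 to 1.38 for Acmsd. Haao stood at 15.3 and 100.3 CPM in the 2 libraries of day 7, and the late-segment marker Slc7a13 at 102 and 1154 CPM in the same libraries. The part of that difference in the 3 values was not tested over all proximal barcodes. In early-marked barcodes alone, Haao was at 21.4 and 25.1 CPM on day 7, each from 3 UMIs, and rose by 2.53 to day 11, and Acmsd rose by 1.27. Kmo had 0 UMIs in the early-marked barcodes of both day 7 libraries, against 39.8 and 55.1 CPM on day 11. For late-marked barcodes, day 7 had a single library and calls were nearly absent over all genes. There Haao was at 129 CPM in replicate 2 of day 7 against 169 and 192 CPM on day 11 (log2 difference 0.92). Acmsd was at 113 CPM in that day 7 library against 95.2 and 121 CPM on day 11, so its CPM did not rise in both. Kmo was at 26.9 CPM, from 5 UMIs, against 51.4 and 43.7 CPM.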

How the results depend on the processing

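Over the 782 recomputed values of single genes, 638 kept their direction and their side of the threshold, 49 fell below it and 68 passed it. The other 27 changed sign, none of them called before or after (adjusted p of at least 0.284). The settings that moved the count of the 7 genes called by more than 1.5 times were as follows. Smaller moves, of 1 gene, were seen as well: 7 settings gave 2 for day 7 against the control, 4 gave 4 for day 11, 3 gave 2 and 1 gave 4 for day 11 against day 7 and 4 gave 4 for injured against proximal barcodes. Without a filter on low counts it was 5 for day 11 and 4 for day 14 against the control, and 5 for day 11 against day 7. The shares of all genes called were 13.1%, 7.83% and 8.89%. With the looser proximal gate it was 2 for day 14 and 5 for day 11 against day 7, at 9.98% and 15% of all genes. With at least 300 genes per barcode it was 2 for day 14, at 9.19% of all genes. Without the deepest 5% of barcodes it was 5 for day 11 and 4 for day 14, where 23.1% and 11.4% of all genes were called. With proximal and injured barcodes summed it was 5 for day 7 and 5 for day 11 against day 7. The shares of all genes were 43.7% and 46%. With only the 2 groups compared, 1 or 2 residual degrees of freedom remain. It was then 5 for day 11, 5 for day 14 and 1 for day 11 against day 7, at 33.5%, 22.8% and 8.85% of all genes. With total counts as scale it was 3 for day 14 (Haao, Qprt and Kynu higher, while Kmo had an adjusted p of 0.0512 by edgeR). It was 0 for day 11 against day 7 and 3 for injured against proximal barcodes. The shares of all genes were 9.06%, 14.6% and 42.8%. In early-marked barcodes it was 2 for day 14, where 4.8% of all genes were called. In late-marked barcodes it was 6 for day 11 and 4 for day 14, where 31.3% and 19.9% of all genes were called. Day 7 had a lone library there, which is assumed to vary like the others, so its counts are not given. The total-count scaling, both marker restrictions and the injured barcodes that also met the proximal gate were chosen after seeing the data. For injured against proximal barcodes it was 3 with at least 1 Havcr1 UMI, 3 in barcodes that also met the proximal gate and 2 with no library block. The cause of these moves was not tested.

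Leaving out each replicate in turn gave 2 to 4 called genes for day 7, 0 to 5 for day 11, 1 to 5 for day 14, 0 to 5 for day 11 against day 7, 0 to 0 for day 14 against day 11 and 4 to 5 for injured against proximal barcodes. Kmo on day 14 was called in 12 of 13 settings and without each library in turn.

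The values that changed sign were as follows. For day 7 against the control, Qprt was at 0.048 with the stricter proximal gate, 0.048 without the deepest 5% of barcodes, 0.60 with total counts and 0.72 in late-marked barcodes, and Haao at 0.12 and 0.18 in the last 2. For day 11 against day 7, Kynu was at 0.029 with at most 25% mitochondrial counts and 0.39 in early-marked barcodes, and Nampt at -0.31 with total counts. Nampt on day 14 was at 0.10 in early-marked barcodes. For day 14 against day 11, DESeq2 gave -0.022 for Kmo and -0.014 for Qprt. Early-marked barcodes gave -0.0013 for Kmo, -1.20 for Kynu and -0.32 for Qprt, and late-marked ones -0.024 for Kmo and -0.0039 for Nampt. In injured against proximal barcodes, Nampt was at -0.027 with the stricter proximal gate, -0.0057 with a Havcr1 UMI, -0.022 with a proximal marker UMI, -0.024 in barcodes that also met the proximal gate and -0.0071 with no library block. Over libraries left out in turn, the ranges were -2.95 to 0.031 for Haao on day 7, -1.44 to 0.37 for Qprt on day 7, -0.030 to 0.12 for Kmo from day 11 to day 14, -0.064 to 0.996 for Kynu over the same days and -0.11 to 0.18 for Nampt in injured against proximal barcodes.

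Replicate numbers do not pair the libraries: the differences between replicates 1 and 2 correlated at 0.191 between days 7 and 11, -0.0926 between days 7 and 14 and -0.0309 between days 11 and 14 over 3952 genes. With the replicate block, 2 genes were called for day 11 against day 7 (Kmo had an adjusted p of 0.0543 by edgeR) and 0 for day 14 against day 11, and calls over all genes went from 1620 to 909 and from 1227 to 751.

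Over all genes, calls ranged with the setting from 122 to 6455 for day 7 (1322 as reported), 1010 to 4117 for day 11 (2895), 485 to 2972 for day 14 (1290), 20 to 6799 for day 11 against day 7 (1620), 263 to 2001 for day 14 against day 11 (1227) and 2284 to 5329 for injured against proximal barcodes (4464). With total counts as scale the split of higher to lower calls was 1685 to 153 for day 7 (623 to 699 as reported), 1641 to 1184 for day 11 (1273 to 1622), 880 to 419 for day 14 (571 to 719), 221 to 1870 for day 11 against day 7 (979 to 641) and 4028 to 1301 for injured against proximal barcodes (2424 to 2040). With DESeq2 the split for day 7 was 797 to 584. The 196285 UMIs of replicate 1 of day 7 limit what can be seen there.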
